A study of Homo sapiens with 34 samples.

Results

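The 8 genes described here mark or build the progenitors of blood and of the vessel lining: KDR, ETV2, TAL1, LMO2, SOX7, SOX18, CDH5 and PECAM1. They were taken as every row of the count tables whose symbol equals one of these names. That rule found 9 of 37951 identifiers, since SOX7 is listed under 2 identifiers and the other 7 genes under 1 each. No measured value entered this rule, but the members were chosen with earlier results of these data known.

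Bulk RNA was sequenced from ESI017, an established line of human embryonic stem cells without edits, in 34 libraries that make up 17 conditions of 2 replicates. On day 1 cells were turned into 4 primitive streak (PS) populations. DE(a) cells, the endoderm progenitors, received activin A at 100 ng/ml with 2 µM of the Wnt activator CHIR99021. Anterior PS (APS) cells received activin A at 30 ng/ml, bFGF at 20 ng/ml and CHIR99021 at 4 µM. Mid PS (MPS) cells received the same activin A and bFGF, with BMP4 at 40 ng/ml and CHIR99021 at 6 µM, and posterior PS (PPS) cells had bFGF, BMP4 and CHIR99021 at the doses of MPS but no activin A. On day 2 each population went into each of 3 media. DE(b) medium held activin A at 100 ng/ml and the BMP receptor inhibitor LDN-193189 at 250 nM. By the labels, PM medium, for paraxial mesoderm, held bFGF at 20 ng/ml, LDN-193189 at 250 nM and the activin receptor inhibitor A-8301 at 1 µM. The study's text describes Wnt activation in PM medium and a supplementary legend lists CHIR99021 there, so the labelled contents may be incomplete. LM medium, for lateral mesoderm, held BMP4 at 30 ng/ml, A-8301 at 1 µM and the Wnt secretion inhibitor IWP2 at 4 µM. The standard routes lead from DE(a) into DE(b), from APS into PM and from MPS into LM. The control is undifferentiated cells kept in maintenance medium and labelled 48 h. Library totals ranged from 15522780 to 23439799 estimated counts, with a median of 19341117.

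Blood and vessel lining arise from common mesodermal precursors that first carry KDR, the main receptor for the vessel growth factor VEGFA. The ETS factor ETV2 starts the program in those cells. The helix-loop-helix factor TAL1 works in a complex in which the adaptor LMO2 bridges it to GATA factors. SOX7 and SOX18 are related SOX factors of the early vessel lining, and CDH5 (vascular endothelial cadherin) and PECAM1 are adhesion proteins of its cell junctions. In the embryo the earliest of these precursors leave the posterior streak under BMP and VEGF signals.

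KDR, LMO2, SOX7 and SOX18 each peaked in a different place, and the other 4 members stayed low in every library. Levels are given in CPM, estimated counts scaled to the library total, which are not corrected for gene length and so are compared between libraries and never between genes. KDR was highest in LM medium and LMO2 in PM medium and in MPS and PPS cells at 24 h. SOX7 was highest in LM medium after PPS, and SOX18 at 24 h in DE(a) and APS cells. No library reached 4 CPM of ETV2, 3 CPM of CDH5 or 2 CPM of PECAM1, and TAL1 had at most 3 counts in any library. In bulk samples, a change in the number of cells that carry a transcript and a change in the amount per cell cannot be told apart.

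**Figure D1:**
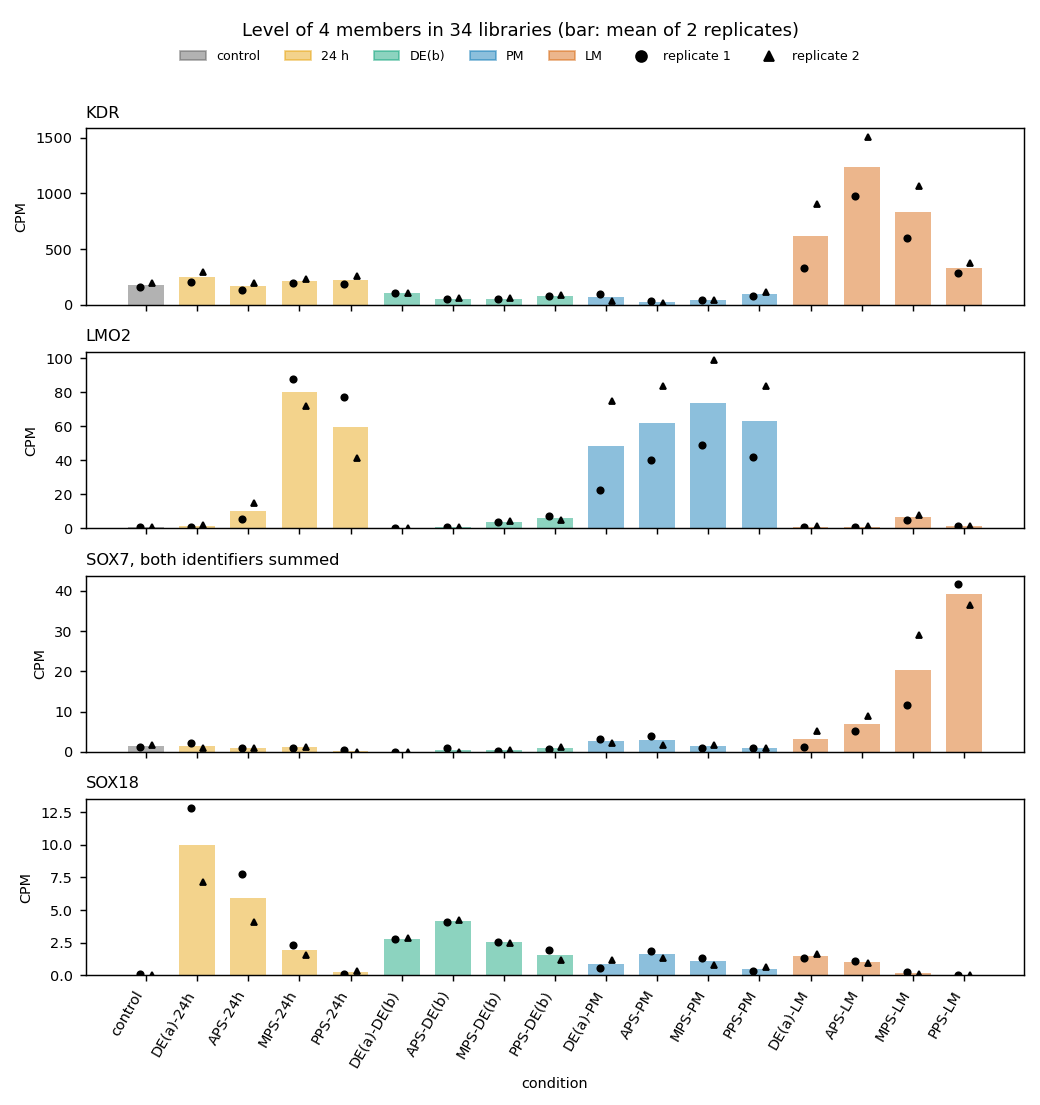
Level in CPM (y axis, linear, from 0) of KDR, LMO2, SOX7 with its identifiers summed, and SOX18 in each of 17 conditions (x axis). Bars are the mean of 2 replicates, circles replicate 1 and triangles replicate 2; KDR stands highest in the 4 LM conditions, from 288 to 1506 CPM over their 8 libraries, and LMO2 in the 4 PM conditions and in MPS and PPS cells at 24 h.

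GATA2, which codes for a GATA factor of the early blood and vessel program, ranged from 0 to 402 CPM over the condition means. Start-site windows from the RefSeq promoter table (GRCh38.p14) are printed here for 3 of 8 members. They show where the GATA letters AGATAA or TGATAA and their reverse complements occur. Whether the RefSeq promoter table also holds entries for the other members is not reported here. The printed windows are those of KDR (chr4:55125546-55125845, minus strand), ETV2 (chr19:35641495-35641794, plus strand) and TAL1, whose first window is chr1:47232286-47232585 on the minus strand. Each runs from 250 bases before the annotated start to 50 after it, read 5′ to 3′ on the gene's strand, and capitals mark a GATA match.
KDR: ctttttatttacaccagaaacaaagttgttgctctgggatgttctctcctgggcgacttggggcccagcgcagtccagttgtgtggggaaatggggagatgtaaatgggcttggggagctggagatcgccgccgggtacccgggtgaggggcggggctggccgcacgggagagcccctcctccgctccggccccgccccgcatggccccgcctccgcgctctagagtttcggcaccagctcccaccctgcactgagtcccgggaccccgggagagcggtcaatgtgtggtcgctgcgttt
ETV2: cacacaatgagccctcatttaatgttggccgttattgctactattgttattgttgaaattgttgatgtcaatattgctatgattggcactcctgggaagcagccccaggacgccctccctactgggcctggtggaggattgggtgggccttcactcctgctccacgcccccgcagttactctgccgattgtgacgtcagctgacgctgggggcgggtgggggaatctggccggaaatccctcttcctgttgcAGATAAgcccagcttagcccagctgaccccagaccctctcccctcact
TAL1: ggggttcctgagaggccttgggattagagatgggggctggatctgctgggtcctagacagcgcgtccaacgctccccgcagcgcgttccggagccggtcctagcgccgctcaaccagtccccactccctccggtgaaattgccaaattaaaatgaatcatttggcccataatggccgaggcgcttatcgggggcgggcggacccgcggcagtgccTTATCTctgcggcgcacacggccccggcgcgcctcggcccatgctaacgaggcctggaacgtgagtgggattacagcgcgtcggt
The match in ETV2 begins at base 3 of the transcript, and that in TAL1, as TTATCT on the printed strand, begins 35 bases before the start. KDR holds no such letters in its window, nor does a second TAL1 window, chr1:47231666-47231965, which is not printed. The printed TAL1 window lies wholly upstream of the GENCODE v44 span of the gene, given below. Of 35116 windows of the same length, 16.3% hold a GATA match. The ETS letters CCGGAA or their reverse complement, present in 17.2% of windows, occur in ETV2 from 21 bases before the start and in TAL1 from 165 bases before it. The Wnt effector letters CTTTGA, searched on both strands and present in 12.9% of windows, occur in none of the 3 genes. These matches describe letters and not binding.

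In the GENCODE v44 annotation of GRCh38, KDR lies on chromosome 4 from 55078481 to 55125595 on the minus strand. LMO2 spans 33858576 to 33892076 of chromosome 11, also on the minus strand. ETV2 lies on chromosome 19 from 35641745 to 35644871 on the plus strand, and TAL1 on chromosome 1 from 47216290 to 47232225 on the minus strand. CDH5 is a plus-strand gene of chromosome 16 (66366690 to 66404784), SOX18 a minus-strand gene of chromosome 20 (64047582 to 64049639) and PECAM1 a minus-strand gene of chromosome 17 (64319415 to 64413776). SOX7 (ENSG00000171056) lies within the same-strand gene PINX1 on chromosome 8, from 10723768 to 10730511. The second SOX7 identifier, ENSG00000285438, has no entry in that annotation, so how reads of the gene were divided between its identifiers is uncertain, and both are reported together with their sum. Antisense noncoding genes overlap KDR, LMO2, TAL1 and SOX7, and whether the quantification used strand is not given in the sources used here.

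Differences were tested in edgeR, by quasi-likelihood on rounded counts and in a single fit of all 34 libraries, and p-values were adjusted by Benjamini-Hochberg over 17895 genes. The threshold for a call was an adjusted p of 0.05. Of the 9 identifiers, 8 had enough counts to be tested, and TAL1 did not. Log2 fold changes carry the standard error (SE) of the fit. A condition whose libraries both hold 0 counts has no finite fold change, so the fitted value then depends on the prior count, and a lower bound against 3 counts per library, or the CPM values, are given in its place. The supplement of the study calls the 2 samples of a condition biological replicates, and the labels do not say what separated them, so p-values measure the spread between these samples.

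KDR, the VEGFA receptor, was already present in undifferentiated cells, at 158 CPM in replicate 1 of the control and 198 CPM in replicate 2. At 24 h it was measured at 200 and 291 CPM in DE(a), 134 and 197 CPM in APS, 194 and 234 CPM in MPS, and 185 and 254 CPM in PPS. APS, MPS and PPS overlap the control and both DE(a) libraries lie just above it, and KDR was not called in any of the 4 populations against it (adjusted p from edgeR between 0.444 and 0.988). After a second day in DE(b) medium KDR stood at 107 and 106 CPM from DE(a), 51.9 and 57.1 CPM from APS, 50.2 and 57.9 CPM from MPS, and 76.6 and 87.9 CPM from PPS. PM medium gave 94.6 and 36.5 CPM from DE(a), 31.3 and 16.7 CPM from APS, 42.0 and 47.5 CPM from MPS, and 79.4 and 112 CPM from PPS. All 16 of these libraries lie below the lowest library at 24 h. In LM medium the level was 329 and 903 CPM from DE(a), 974 and 1506 CPM from APS, 597 and 1064 CPM from MPS, and 288 and 374 CPM from PPS. Replicate 2 was the higher library in each LM condition, by the most after DE(a).

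Averaged over the 4 day 1 treatments, the log2 fold change of KDR in LM over PM medium was 3.80 (SE 0.24, edgeR adjusted p = 1.6e-11), with no overlap between the 8 libraries of each medium. Against DE(b) medium the log2 fold change was 3.26 (SE 0.24, adjusted p = 1.4e-10), again without overlap. Relative to 24 h, KDR rose in LM medium by 1.67 log2 units (SE 0.22, adjusted p = 1.1e-06) and fell by 2.13 in PM medium (SE 0.23, adjusted p = 7.4e-08) and by 1.59 in DE(b) medium (SE 0.22, adjusted p = 3.3e-06). The LM and 24 h libraries overlap at a single point, since PPS-LM replicate 1, at 288 CPM, lies below DE(a)-24h replicate 2, at 291 CPM. Between DE(b) and PM medium KDR differed by 0.54 (SE 0.22), which missed the threshold at an adjusted p of 0.0518 in the fit over all libraries. It passed with only the libraries compared (0.0325), in DESeq2 (0.0264), and without DE(a)-PM replicate 1 (0.0074), APS-PM replicate 1 (0.024) or PPS-PM replicate 2 (0.0431).

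Ordered by the mean of 2 replicates, KDR ran from APS-LM (1240.0 ± 376 CPM, SD, n = 2) through MPS-LM (830.4 ± 330.1 CPM), DE(a)-LM (616 ± 405 CPM) and PPS-LM (331 ± 60.6 CPM) to the 24 h populations, of which DE(a) was highest at 245 ± 64.2 CPM. The control followed at 178 ± 27.9 CPM and APS-24h at 166 ± 44.3 CPM. Neighbours down to APS-24h overlap in their libraries. The next step, to DE(a)-DE(b) at 106 ± 0.767 CPM, separates the libraries, as do the steps from MPS-DE(b), at 54.1 ± 5.44 CPM, to MPS-PM, at 44.7 ± 3.91 CPM, and from there to APS-PM, at 24.0 ± 10.3 CPM, the lowest condition.

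LMO2, the adaptor of the TAL1 complex, stood at 0.993 and 1.06 CPM in the control libraries. It was 0.829 and 1.83 CPM in DE(a) at 24 h and 5.21 and 14.8 CPM in APS. MPS cells at 24 h held 87.7 and 72.005 CPM, and PPS cells 77.0 and 41.5 CPM. MPS and PPS, which had received BMP4 and CHIR99021 at 6 µM, thus lie above DE(a) and APS in every library. BMP4 and the higher CHIR99021 dose cannot be told apart in this split. In DE(b) medium LMO2 was 0.246 and 0.233 CPM after DE(a), 0.551 and 1.04 CPM after APS, 3.51 and 4.22 CPM after MPS, and 7.18 and 4.98 CPM after PPS. LM medium gave 0.955 and 1.098 CPM after DE(a), 0.722 and 1.23 CPM after APS, 4.94 and 7.83 CPM after MPS, and 1.58 and 1.64 CPM after PPS. In PM medium the replicates were far apart, at 22.3 and 74.7 CPM after DE(a), 40.1 and 83.5 CPM after APS, 49.1 and 98.6 CPM after MPS, and 42.0 and 83.8 CPM after PPS. Even so, the lowest PM library lies above the highest library of the other day 2 media, 7.83 CPM.

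LMO2 had a log2 fold change of -5.02 in LM over PM medium (SE 0.33, edgeR adjusted p = 2.5e-11), and in DE(b) over PM medium of -5.32 (SE 0.34, adjusted p = 2.2e-11). Between LM and DE(b) the difference was 0.30 (SE 0.39, adjusted p = 0.608), and the libraries overlap. Against 24 h, LMO2 fell by 3.17 in LM (SE 0.33, adjusted p = 3.8e-08) and by 3.46 in DE(b) medium (SE 0.35, adjusted p = 3.6e-08), and rose by 1.86 in PM medium (SE 0.28, adjusted p = 9.3e-06). The 24 h mean covers populations from 0.829 to 87.7 CPM, so this last value averages over unlike starting levels, and MPS and PPS cells at 24 h overlap the PM libraries.

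By its means LMO2 fell into steps. MPS-24h (79.9 ± 11.1 CPM), MPS-PM (73.9 ± 35.0 CPM), PPS-PM (62.9 ± 29.5 CPM), APS-PM (61.8 ± 30.7 CPM), PPS-24h (59.2 ± 25.1 CPM) and DE(a)-PM (48.5 ± 37.1 CPM) overlap their neighbours. APS-24h, at 10.02 ± 6.81 CPM, lies below all of these, and its libraries overlap those of MPS-LM, at 6.39 ± 2.04 CPM. Libraries also separate between PPS-DE(b) (6.08 ± 1.56 CPM) and MPS-DE(b) (3.87 ± 0.501 CPM), between the latter and PPS-LM (1.61 ± 0.0451 CPM), and between APS-DE(b) (0.794 ± 0.343 CPM) and DE(a)-DE(b) (0.239 ± 0.00967 CPM). Across the 17 condition means, genes close to LMO2 included ADAMTSL2 (Pearson's r of log2 levels 0.956) and the paraxial mesoderm factor MSGN1 (0.955).

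**Figure D2:**
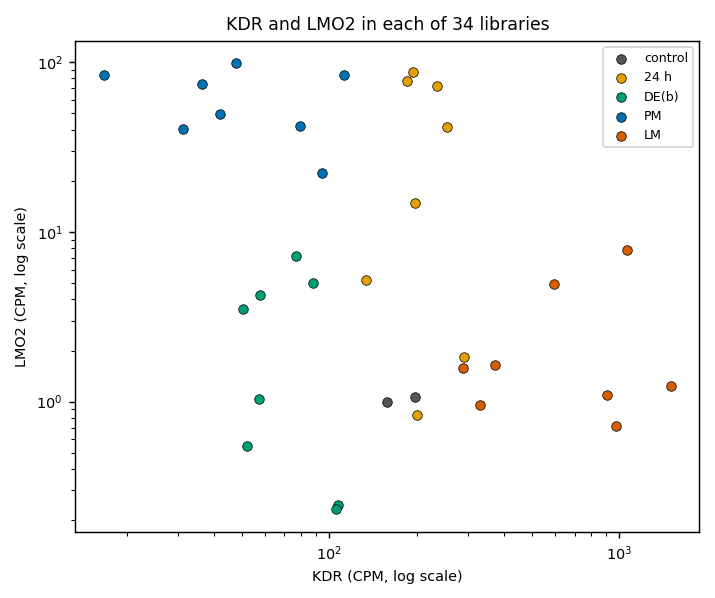
KDR (x axis) against LMO2 (y axis), both in CPM on log scales, with 1 point for each of 34 libraries coloured by medium or time. PM libraries sit at the upper left, with LMO2 from 22.3 to 98.6 CPM, LM libraries at the lower right, with LMO2 at most 7.83 CPM, and MPS and PPS cells at 24 h at the upper middle.

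SOX7, with its identifiers summed, was 1.30 and 1.70 CPM in the control and at most 2.13 CPM in the 24 h libraries. In DE(b) medium it ranged from 0 to 1.33 CPM with a median of 0.378 CPM, and in PM medium from 0.985 to 3.98 CPM with a median of 1.69 CPM. LM medium gave 1.098 and 5.11 CPM after DE(a), 5.18 and 8.80 CPM after APS, 11.7 and 29.1 CPM after MPS, and 41.7 and 36.5 CPM after PPS. In LM medium the means thus rise from DE(a) to PPS, and PPS-LM lies above every other library. Tested as a sum, an alternative chosen after seeing the data, SOX7 was higher in LM than in PM medium by 2.73 log2 units (SE 0.42, adjusted p = 1.2e-05 from edgeR) and than in DE(b) medium by 5.17 (SE 0.51, adjusted p = 2.3e-08). In DE(b) medium the sum was below PM, at -2.43 on the log2 scale (SE 0.52, adjusted p = 0.00054), and below 24 h, with -1.37 (SE 0.56, adjusted p = 0.0451).

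Taken singly, both SOX7 identifiers were called in the 3 comparisons between media, and neither was called between DE(b) and 24 h. ENSG00000285438, which held most of the counts in LM medium, differed by 3.04 (SE 0.52, adjusted p = 5.2e-05) between LM and PM and by 5.88 (SE 0.66, adjusted p = 2.6e-07) between LM and DE(b), and its 8 LM libraries lie above all 8 DE(b) libraries. ENSG00000171056 differed by 2.12 between LM and PM (SE 0.74, adjusted p = 0.0256 from edgeR). This call is lost without DE(a)-LM replicate 2 (0.932), APS-PM replicate 2 (0.0601), MPS-PM replicate 2 (0.0647) or PPS-PM replicate 2 (0.0519), and its call between LM and DE(b) without DE(a)-LM replicate 2 (1.00). For DE(b) against PM, ENSG00000171056 is no longer called without any of 5 libraries, DE(a)-DE(b) replicate 1, APS-DE(b) replicate 2 and replicate 1 of DE(a)-PM, APS-PM or MPS-PM (adjusted p from 0.0529 to 1.00), and ENSG00000285438 without MPS-PM replicate 2 (1.00). The division of counts between the identifiers changed from library to library: MPS-PM replicate 1 held 1.07 CPM of ENSG00000171056 and 0 of the other identifier, while DE(a)-PM replicate 2 held 0 and 2.24 CPM.

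SOX18, the related SOX factor, had the opposite order of means to SOX7 in LM medium, falling from DE(a) to PPS. At 24 h both genes had their highest mean in DE(a) and their lowest in PPS, at 1.59 and 0.282 CPM for the SOX7 sum. The control libraries held 0.0903 and 0 CPM of SOX18. At 24 h SOX18 was 12.9 and 7.16 CPM in DE(a), 7.78 and 4.07 CPM in APS, 2.35 and 1.57 CPM in MPS, and 0.0988 and 0.361 CPM in PPS. The fall from DE(a) to PPS is seen in both replicates. In DE(b) medium SOX18 was at 2.76 and 2.85 CPM after DE(a), 4.09 and 4.27 CPM after APS, 2.59 and 2.46 CPM after MPS, and 1.97 and 1.15 CPM after PPS. In PM medium the 8 libraries ranged from 0.346 to 1.87 CPM with a median of 1.01 CPM. In LM medium SOX18 was 1.34 and 1.67 CPM after DE(a), 1.14 and 0.966 CPM after APS and 0.236 and 0.0949 CPM after MPS, and no count was found in either PPS-LM library.

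SOX18 was higher in DE(b) than in PM medium by 1.55 log2 units (SE 0.28, adjusted p = 0.00011 from edgeR). It was also called lower in LM than in PM (adjusted p = 0.00023) and in DE(b) medium (adjusted p = 6.9e-08), with means over 8 libraries of 0.68 CPM in LM, 1.01 CPM in PM and 2.77 CPM in DE(b). Both averages include PPS-LM, with 0 counts, and the order of LM and PM was not the same for each day 1 treatment. After DE(a) the LM mean, 1.504 ± 0.237 CPM, was above that of PM, 0.874 ± 0.435 CPM, and after MPS it was below, at 0.165 ± 0.0997 CPM against 1.08 ± 0.345 CPM. From 24 h to LM and to PM medium SOX18 fell (adjusted p = 1.9e-07 and 0.00059), and to DE(b) medium it differed by 0.16 (SE 0.27, adjusted p = 0.66).

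**Figure D3:**
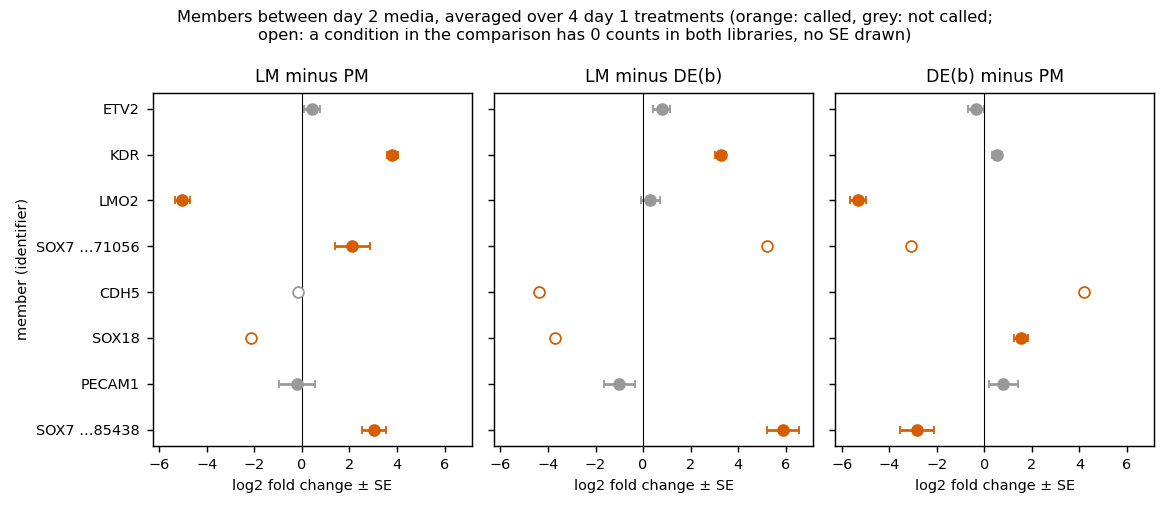
Log2 fold change with SE (x axis, the same scale in each panel) of the 8 tested identifiers (y axis) between pairs of day 2 media, averaged over 4 day 1 treatments. Orange marks a call and open circles a comparison that includes a condition with 0 counts in both libraries, whose fitted size depends on the prior count; KDR lies at 3.80 and 3.26 in LM against PM and DE(b), and LMO2 at -5.02 in LM against PM.

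Over the members as a group, 5 of 8 tested identifiers were called between LM and PM, where 42.0% of all tested genes were called. The 3 that were higher in LM are KDR and both SOX7 identifiers, and the 2 that were lower are LMO2 and SOX18, against 21.0% of genes called higher and 21.0% called lower. Between LM and DE(b) 5 of 8 were called, with 39.6% of all genes called. Here 3 were higher, again KDR and both of SOX7, and 2 lower, CDH5 and SOX18, beside 19.8% of genes higher and 19.8% lower. DE(b) against PM also gave 5 of 8, where the share of all genes was 43.0%. CDH5 and SOX18 were higher there and LMO2 and both SOX7 identifiers lower, against 21.4% of genes higher and 21.6% lower. The median log2 fold change over the members was 0.13, 0.54 and 0.09 in these comparisons in turn, and over all tested genes 0.00, 0.02 and -0.01. With 8 identifiers these shares are near those of all genes, and the members did not move in a common direction. Each medium enters 2 of these comparisons, so the comparisons share libraries.

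Against 24 h, 6 of 8 were called in LM (56.0% of all genes), 5 of 8 in PM (48.2%) and 5 of 8 in DE(b) medium (51.0%). ETV2 was called higher in all 3 media, and KDR and LMO2 in the directions given above. Both SOX7 identifiers were called higher in LM, and ENSG00000171056 also in PM (adjusted p = 0.018), a call lost without replicate 1 of DE(a)-PM (1.00), APS-PM (0.0777) or MPS-PM (0.0548). In LM, ENSG00000171056 is no longer called without DE(a)-LM replicate 2 (1.00). CDH5 and PECAM1 were called higher in DE(b).

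ETV2, the ETS factor that starts the program, was lowest in the control, at 0.181 and 0.0532 CPM. At 24 h the 8 libraries ranged from 0.361 to 0.825 CPM with a median of 0.511 CPM. Medians were 1.02 CPM in DE(b), 1.38 CPM in PM and 1.55 CPM in LM medium. The highest libraries were replicate 2 of APS-LM, at 3.46 CPM, and of MPS-LM, at 3.21 CPM, while replicate 1 of these conditions held 1.34 and 1.16 CPM. The 3 media overlap in ETV2, and no difference between them was called (adjusted p from edgeR 0.354 for LM against PM, 0.0767 for LM against DE(b) and 0.44 for DE(b) against PM). LM against DE(b) did pass the threshold without replicate 1 of DE(a)-LM, APS-LM or MPS-LM or without APS-DE(b) replicate 2 (log2 fold changes from 0.914 to 0.981). ETV2 was above 24 h by 1.71 log2 units in LM (SE 0.35, adjusted p = 0.00029), by 1.29 in PM (SE 0.35, adjusted p = 0.0044) and by 0.93 in DE(b) medium (SE 0.36, adjusted p = 0.0332). The last of these calls is lost without DE(a)-DE(b) replicate 1 (0.0584) or without replicate 2 of DE(a)-24h (0.063), APS-24h (0.0591), MPS-24h (0.0534), PPS-24h (0.0623), APS-DE(b) (0.114), MPS-DE(b) (0.0658) or PPS-DE(b) (0.0506), and without the filter on low counts (0.0567).

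CDH5, the cadherin of the vessel lining, had 0 counts in 17 of 34 libraries, among them all 8 at 24 h. The control held 0.406 and 0.213 CPM. In DE(b) medium CDH5 was found in every library, at 1.13 and 0.524 CPM after DE(a), 2.88 and 1.58 CPM after APS, 1.75 and 0.773 CPM after MPS, and 0.192 and 0.425 CPM after PPS. Elsewhere it was 0.940 and 0.168 CPM in DE(a)-PM, 0.527 and 0.0853 CPM in APS-PM, 0.764 and 0.668 CPM in DE(a)-LM and 0 and 0.273 CPM in PPS-LM, and 0 in the other PM and LM libraries. A count of 0 allows up to 3 counts, or 0.128 to 0.193 CPM depending on the library, for counting error only. The 8 DE(b) libraries lie above all 24 h libraries, with a mean of 1.16 CPM and at least 7.70-fold higher (adjusted p = 2.4e-05 from edgeR). CDH5 was also called higher in DE(b) than in PM (adjusted p = 0.00067), where the mean was 0.215 CPM, and than in LM medium (adjusted p = 0.00064), where it was 0.213 CPM.

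PECAM1, the junction protein, exceeded 3 counts in 10 of 34 libraries. The 24 h libraries ranged from 0 to 0.0537 CPM, the DE(b) libraries from 0.148 to 0.542 CPM, the PM libraries from 0 to 0.893 CPM and the LM libraries from 0 to 1.05 CPM. Its highest values were in replicate 2 of DE(a)-LM and replicate 1 of DE(a)-PM. It was called only between DE(b) and 24 h, as at least 1.71-fold higher (adjusted p = 0.0028 from edgeR), among the comparisons made here. TAL1 had 23.0 counts in all over 34 libraries and 0 in 21 of them, and was highest in MPS-PM at 0.189 and 0.167 CPM, so no difference was detectable at this depth.

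**Figure D4:**
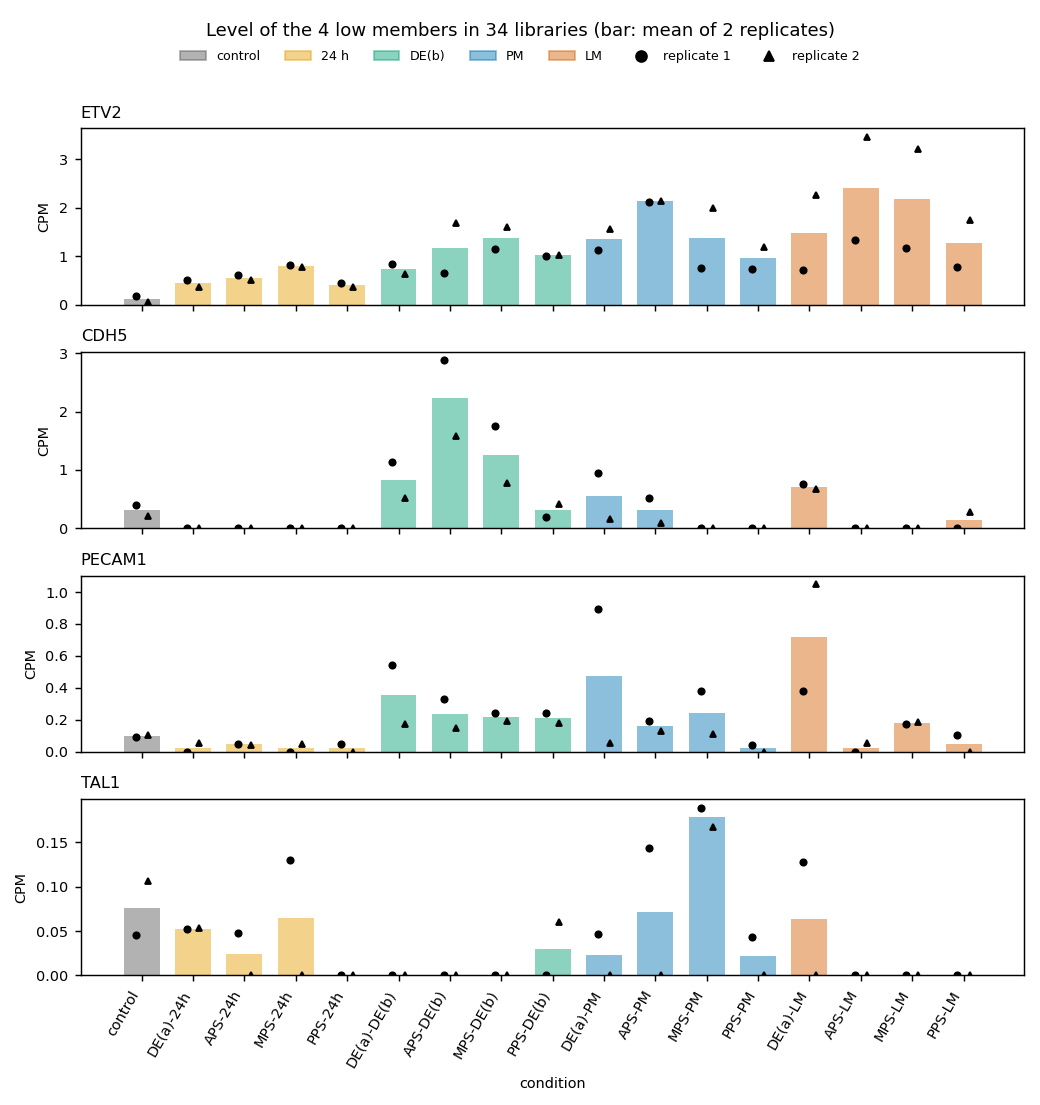
Level in CPM (y axis, linear, from 0, scaled for each gene) of ETV2, CDH5, PECAM1 and TAL1 in each of 17 conditions (x axis). Bars are the mean of 2 replicates, circles replicate 1 and triangles replicate 2; CDH5 is at 0 in all 24 h libraries and highest in DE(b) medium, and TAL1 does not pass 0.189 CPM.

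The first day was examined by setting each 24 h population against the control, which all 4 comparisons share. The control is labelled 48 h, so time in culture differs along with treatment, and the 2 cannot be told apart. In DE(a) 1 of 8 identifiers was called (19.0% of all genes), SOX18, at least 67.8-fold higher (adjusted p = 3.6e-07 from edgeR). APS gave 2 of 8 (24.5%), SOX18 at least 40.2-fold higher (adjusted p = 9.1e-07) and LMO2 higher by 3.36 log2 units (SE 0.66, adjusted p = 0.00051). MPS gave 4 of 8 (30.0%). LMO2 rose there by 6.37 (SE 0.70, adjusted p = 2.9e-07), SOX18 was at least 13.3-fold higher (adjusted p = 1.8e-05), ETV2 rose by 2.78 (SE 0.82, adjusted p = 0.0121) and CDH5 was at least 2.23-fold lower (adjusted p = 0.046). CDH5 had 0 counts in every 24 h library, so its call in MPS alone does not set MPS apart from the other populations. PPS gave 2 of 8 (29.8%), LMO2 higher by 5.87 (SE 0.69, adjusted p = 9e-07) and the SOX7 identifier ENSG00000285438 at least 6.34-fold lower (adjusted p = 0.0152). The ETV2 call is lost without control replicate 2 (0.125). That of CDH5 is lost by DESeq2 (0.0581) and without any of the 4 libraries compared, MPS-24h replicate 1 (0.173) or 2 (0.152) or control replicate 1 (0.146) or 2 (0.0654). The SOX7 call is lost without PPS-24h replicate 1 (0.0822) or 2 (0.0762) or control replicate 2 (0.0876), and with the identifiers summed (0.0811).

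Between neighbouring populations at 24 h few genes differed, and LMO2 was called at both steps that move from anterior to mid streak. From DE(a) to APS, where 0.732% of all genes were called, LMO2 was the single member of 8 called, at 2.90 (SE 0.64, adjusted p = 0.031 from edgeR). From APS to MPS, where BMP4 and more CHIR99021 were given, it was again the single call, at 3.01 (SE 0.56, adjusted p = 0.00285), beside 2.93% of all genes. From MPS to PPS, which differ by activin A, 2 of 8 were called (6.14% of all genes). SOX18 fell by 3.18 (SE 0.64, adjusted p = 0.0044) and ENSG00000285438 of SOX7 was at least 6.42-fold lower (adjusted p = 0.0471), which with the identifiers summed was not called (0.283). LMO2 differed by -0.51 at that step (SE 0.52, adjusted p = 0.638). With only the libraries of a step in the fit, LMO2 between DE(a) and APS (0.0958), SOX18 (0.124) and SOX7 (0.0743) between MPS and PPS are not called. LMO2 between DE(a) and APS is also lost without DE(a)-24h replicate 1 (0.541) or 2 (0.0997) or APS-24h replicate 2 (0.681), and between APS and MPS without APS-24h replicate 1 (0.0788). The SOX18 call is lost without MPS-24h replicate 1 (0.0584), and that of SOX7 without any of the 4 libraries (0.0961 to 0.265).

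Whether the day 1 population still showed after day 2 was asked within each medium against its standard protocol, which the 3 comparisons of a medium share. In LM medium, DE(a)-LM differed from MPS-LM in 4 of 8 identifiers (14.4% of all genes). LMO2 was lower, at -2.74 on the log2 scale (SE 0.67, edgeR adjusted p = 0.0069), as was ENSG00000285438 of SOX7, with -3.13 (SE 1.00, adjusted p = 0.0397), while SOX18 was higher by 3.09 (SE 0.67, adjusted p = 0.0027) and CDH5 at least 4.52-fold higher (adjusted p = 0.0331). APS-LM differed in 2 of 8 (3.79%), with LMO2 at -2.76 (SE 0.67, adjusted p = 0.0219) and SOX18 at 2.63 (SE 0.68, adjusted p = 0.0309). PPS-LM gave 0 of 8 by edgeR (5.6% of all genes), with 3 at an unadjusted p under 0.05. DESeq2 called KDR (0.0242) and LMO2 (0.0122), and edgeR called LMO2 with only the libraries compared (0.0385). In that comparison the log2 fold changes were -1.35 (SE 0.44, adjusted p = 0.0794) for KDR and -2.02 (SE 0.63, adjusted p = 0.0685) for LMO2. None of the 6 calls in LM medium holds without MPS-LM replicate 2 (adjusted p from 0.0669 to 0.418), and those of LMO2, CDH5 and SOX7 in DE(a)-LM do not hold without DE(a)-LM replicate 1 (0.071, 0.0838 and 0.27) or replicate 2 (0.0507, 0.0679 and 0.0827). LMO2 and SOX18 in APS-LM are also lost without APS-LM replicate 1 (0.328 and 0.183), SOX18 there and CDH5 in DE(a)-LM without MPS-LM replicate 1 (0.0549 and 0.13), and SOX18 in APS-LM when only the libraries compared are fitted (0.186).

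In DE(b) medium LMO2 was called for 2 of the day 1 treatments. Against DE(a)-DE(b), APS-DE(b) gave 0 of 8 by edgeR (0.469% of all genes), with 2 at an unadjusted p under 0.05 and 0 by DESeq2. MPS-DE(b) gave 1 of 8 (5.59%), LMO2 at 3.98 (SE 0.87, adjusted p = 0.0065), and PPS-DE(b) 1 of 8 (17.4%), LMO2 at 4.67 (SE 0.84, adjusted p = 0.00041). The first of these is lost without DE(a)-DE(b) replicate 1 (0.0605) or 2 (0.0716). KDR was at 50.2 and 57.9 CPM in MPS-DE(b) and 107 and 106 CPM in DE(a)-DE(b), without overlap, and was not called in the fit over all libraries (log2 fold change -0.97, SE 0.44, adjusted p = 0.257) but was with only the libraries compared (0.0333). The SOX7 sum was also called in PPS-DE(b), at 4.17 (SE 1.32, adjusted p = 0.0321), where DE(a)-DE(b) held at most 1.41 counts.

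PM medium showed the fewest differences. DE(a)-PM against APS-PM gave 0 of 8 by edgeR (0.0559% of all genes), with 1 at an unadjusted p under 0.05 and 0 by DESeq2. MPS-PM likewise gave 0 of 8 (0.447%), with 1 and 0. PPS-PM gave 1 of 8 (5.25%), KDR, higher by 2.02 (SE 0.45, adjusted p = 0.0084), at 79.4 and 112 CPM against 31.3 and 16.7 CPM. It is lost without APS-PM replicate 2 (0.119) or PPS-PM replicate 2 (0.0857) and when only the libraries compared are fitted (0.0721). LMO2, which was called between some of the day 1 populations at 24 h and in DE(b) medium, was not called against APS-PM, at log2 fold changes of -0.35 after DE(a), 0.27 after MPS and 0.05 after PPS (SE 0.52 each, adjusted p from 0.994 to 1.00).

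The day 1 effect was then tested for a difference between the 3 media, as the interaction over the 12 conditions of day 2. It was called for 3 of 8 identifiers (13.1% of all genes). For KDR the adjusted p from edgeR was 0.0032. APS gave the highest KDR mean of the 4 day 1 treatments in LM medium and the lowest in PM medium, and PPS the lowest in LM and the highest in PM. For LMO2 the adjusted p was 0.0125 and for SOX18 0.00705. SOX7 with its identifiers summed gave 0.0296, and its identifiers singly 0.547 and 0.0562.

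Some markers of finished vessel lining and blood were near the floor, and others were not. EMCN, a vessel lining glycoprotein, was at or under 3 counts in every library of the control, 24 h and DE(b), and the condition means of CLEC14A, ESAM, CD93, ROBO4, PLVAP and MMRN1 did not exceed 1.04 CPM. The 7 vessel lining markers other than KDR (CDH5, PECAM1, ESAM, CLDN5, TEK, EMCN and CLEC14A) summed to 33.3 to 38.6 CPM in the control, 25.2 to 33.7 CPM at 24 h, 9.88 to 18.6 CPM in DE(b), 15.7 to 25.2 CPM in PM and 21.6 to 131 CPM in LM medium. The highest LM sum is nearly all TEK, which alone held 108 and 131 CPM in MPS-LM. CLDN5 was at or under 3 counts in every LM library. Of the blood markers, PTPRC, a surface protein of white cells, and HBZ, an embryonic globin, were at or under 3 counts in all 34 libraries. In LM medium, where KDR and SOX7 were highest, the sum of 6 amnion markers was also high, from 88.6 to 581 CPM against 1.83 to 13.9 CPM in PM medium. The lateral and cardiac mesoderm markers likewise summed to 576 to 2694 CPM in LM and to 106 to 359 CPM in PM. ISL1 is counted in both of these sums. In PM medium, where LMO2 was highest, the paraxial mesoderm markers summed to 801 to 1526 CPM, against 6.61 to 21.9 CPM in LM. The part of these cell types in the values of KDR, SOX7 and LMO2 was not tested.

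Of the VEGF and angiopoietin signalling genes, the ligands and co-receptors around KDR, 10 of 15 were called higher and 3 lower in LM than in PM, with a median log2 fold change of 0.90 against 0.00 over all genes, of which 42.0% were called. VEGFC, a ligand of the lymphatic VEGF receptor, differed by 6.31 (SE 0.41, adjusted p = 2.4e-11 from edgeR), with means of 12.8 and 0.143 CPM. PGF, a ligand of the decoy receptor FLT1, was higher by 2.10 (SE 0.18) and FLT4 lower, at -1.11 (SE 0.16). Against DE(b), 6 of 15 were higher in LM and 4 lower (median 0.11, all genes 0.02, of which 39.6% were called), with VEGFC at 5.04 and PGF at 2.84 above, and ANGPT2 at -5.29 (SE 0.43, means 3.42 and 82.3 CPM) and NRP2 at -2.28 below. VEGFA, the ligand of KDR, had a mean of 254 CPM under DE(a)-DE(b) and 39.2 CPM under PPS-DE(b) (log2 fold change -2.66, SE 0.33, adjusted p = 6.3e-06), and in DE(a)-LM it was above MPS-LM by 1.48 (SE 0.32, adjusted p = 0.00236). TEK, the angiopoietin receptor, was highest in MPS-LM at 120 CPM and lower in APS-LM, at -1.19 (SE 0.28), and in PPS-LM, at -1.62 (SE 0.28).

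Among 16 transcription factors of the vessel and blood precursors, 7 were higher and 4 lower in LM than in PM (median 0.66, beside 0.00 and 42.0% called over all genes). In LM 6 were higher and 4 lower than in DE(b) (median -0.09, beside 0.02 and 39.6% called over all genes). GATA2, the partner of the TAL1 and LMO2 complex, differed by 6.69 against PM (SE 0.21, adjusted p = 6.8e-16 from edgeR) and was also higher than in DE(b), with a mean of 278 CPM in LM, 4.58 CPM in PM and 7.27 CPM in DE(b), where both APS-DE(b) libraries held 0 counts. In PPS-PM it was above APS-PM by 3.68 (SE 0.42) and in PPS-DE(b) above DE(a)-DE(b) by 7.34 (SE 0.56). EPAS1, a hypoxia factor of vessels, differed by 5.87 against PM and 6.63 against DE(b), and was highest in PPS-LM at 276 CPM, above MPS-LM by 2.87 (SE 0.56, adjusted p = 0.00254), where the SOX7 sum was also highest. BCL6B at -2.33 and the broadly present TCF3 at -0.54 were lower in LM than in PM. SOX17, the third SOX factor of the family of SOX7 and SOX18 and also an endoderm factor, was lower in LM than in DE(b), at means of 21.3 and 371 CPM with 0 counts in MPS-LM, and so was HHEX, at 0.345 and 37.1 CPM, with at most 3 counts per library after APS, MPS and PPS in LM. The LM level of SOX17 came mainly from DE(a)-LM, at a mean of 82.2 CPM, at least 519-fold above MPS-LM (adjusted p = 0.00031 from edgeR).

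Of 15 surface and junction genes of the vessel lining, 10 had enough counts to be tested. In LM 1 was higher and 1 lower than in PM (median -0.10), where 42.0% of all genes were called, and 2 were higher and 3 lower than in DE(b) (median -0.21), where 39.6% were. APLNR, the apelin receptor of early mesoderm, reached a mean of 1656 CPM in MPS-LM, and was lower in DE(a)-LM (log2 fold change -1.59, SE 0.37). VWF, a clotting factor carrier, had means of 131 CPM under DE(a)-DE(b) and 2.53 CPM under PPS-DE(b) (log2 fold change -5.68, SE 0.71, adjusted p = 6.3e-06 from edgeR), and in DE(a)-LM it was above MPS-LM by 4.69 (SE 0.73). S1PR1 was above MPS-LM in PPS-LM by 3.15 (SE 0.61), at 46.1 CPM. Of 25 blood cell genes 19 were tested, with 7 higher and 4 lower in LM than in PM (median 1.15) and 5 higher and 6 lower than in DE(b) (median -0.36), beside the same 42.0% and 39.6%. In DE(b) 9 were higher and 3 lower than in PM (median 1.66), where 43.0% of all genes were called. KLF1 at 4.598 and IKZF1 at 4.18 led the rises over PM, and NFE2 at 2.07 was above and MYB at -3.32 below DE(b). RUNX1, the factor at the start of blood formation, was above MPS-LM in PPS-LM by 2.47 (SE 0.43, adjusted p = 0.00088), at 6.99 and 1.23 CPM. Within PM medium the named genes of these lists differed in PPS-PM, where KIT, a receptor of blood progenitors, was above APS-PM by 2.19 (SE 0.55) and NRP1, a VEGF co-receptor, below at -1.32 (SE 0.34).

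Other genes with condition means closest to those of a member were sought by Pearson's r of log2(CPM + 1) over 17 conditions, as a description, since the means share libraries and depth. For KDR these were PLXDC2 (r = 0.962), BMPR1A (0.916) and CEBPD (0.915). For ETV2 they were P3H1 (0.960), MMP2 (0.920) and VIM (0.919), and for SOX18 FAM13C (0.914), PRRT1B (0.907) and SUCLA2 (0.890). CDH5 was followed by IFNAR2 (0.935), GNAI2 (0.931) and BTBD3 (0.926). The SOX7 identifiers were nearest to SLC39A2 (0.938 for ENSG00000171056 and 0.946 for ENSG00000285438). Among the members themselves, the SOX7 identifiers had r = 0.925 with each other, KDR and LMO2 -0.41, and SOX18 and ENSG00000171056 -0.58.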

How the data were processed

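RNA was sequenced from 34 libraries of ESI017 cells. Per the methods and labels, the authors prepared poly(A)-selected directional libraries, quantified transcripts with Salmon 1.10.2 against GRCh38 with sequence and GC bias correction, and summed them to genes in R 4.4.2. The estimated count values deposited by the authors carry no normalization for depth or length. The replicates come in 2 tables, joined on 37951 identifiers. PM medium is given as in the labels, although the study's text describes Wnt activation in it and a supplementary legend lists CHIR99021.

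Rounded counts entered edgeR 4.0.16 under R 4.3.3, with factors from TMM, filterByExpr by condition and 1 mean per condition, and the p-values of its quasi-likelihood tests were adjusted by Benjamini-Hochberg (common dispersion 0.0611, 17 residual degrees of freedom). CPM used library totals, in Python 3.11.15 with pandas 2.3.3. Groups of libraries at or under 3 counts were taken as at the floor. Alternatives were RLE normalization, no filter, DESeq2 1.42.0, a replicate block, only the libraries compared, TMM-scaled levels, each replicate left out (with the dispersion trend of all libraries kept), and, chosen after seeing the data, summed SOX7 identifiers. The steps were tested on simulated data. Besides the members, the text names genes of each list that were called, reached 5 CPM in a condition, did not overlap, and were among the 2 largest rises or falls, and the 3 genes most like a member; some of these are not reported here. The members and lists were chosen with earlier results of these data known. Positions come from GENCODE v44.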

Additional observations from a re-analysis of the deposited data

Results flagged for a closer look

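The effect of the day 1 population differed between the day 2 media for 3 members, by the interaction test of edgeR over the 12 conditions of day 2. For KDR the adjusted p was 0.0032, for SOX18 0.00705 and for LMO2 0.0125. KDR was highest after APS in LM medium, at 1240.0 CPM, and lowest after APS in PM medium, at 24.0 CPM. LMO2 spanned 0.239 to 6.08 CPM over the day 1 populations in DE(b) medium and 48.5 to 73.9 CPM in PM medium. SOX18 was 1.504 CPM after DE(a) and 0 after PPS in LM medium, and 0.874 and 0.483 CPM in PM medium. By leaving out each of the 24 libraries of day 2, the number of members called ranged from 2 to 4. The causes were not tested.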

How the results depend on the processing

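Of 176 tests of a member in a comparison, 53 were called. Of these, 31 were called in the same direction under every alternative run for them, and 93 of the 123 tests not called stayed uncalled under every alternative. RLE normalization changed no call, and no call reversed its direction. Removing the filter raised the members called from 9 to 15 for 24 h against the control, from 6 to 11 within LM medium, from 2 to 8 within DE(b) medium, from 1 to 4 within PM medium and from 3 to 6 for the interaction. Fitting only the libraries compared lowered the count from 4 to 1 for the 24 h steps and from 1 to 0 in PM medium. DESeq2 gave 2 in PM medium and 5 for the interaction. The cause was not tested.

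The replicate numbers were not taken as pairs, since the labels name no shared batch and 96 of 136 pairs of conditions, not all, had a correlation of replicate differences over 0.1 (from -0.196 to 0.569, median 0.162). Each number is its own deposited table, and replicate 2 was the higher library of KDR in all 4 LM conditions and of LMO2 in all 4 PM conditions. With the replicate block the interaction gave 5 members, 24 h against the control 12 and LM medium 8, and 6 tests gained a call and none lost one: KDR (0.0456) and LMO2 (0.0278) in PPS-LM, KDR between DE(b) and PM (0.0399), ETV2 in APS at 24 h (0.0305) and CDH5 in APS (0.0494) and PPS (0.0473) at 24 h.

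Leaving out 1 library gave 6 to 9 members for 24 h against the control, 2 to 3 for the 24 h steps, 13 to 16 between media, 15 to 17 for media against 24 h, 0 to 6 within LM medium, 1 to 2 within DE(b), 0 to 1 within PM and 2 to 4 for the interaction. The count for the steps fell to 2 without MPS-24h replicate 1. Levels under TMM-scaled totals were 0.935 to 1.06 times those given. With 2 replicates per condition and members at a few counts, differences in CDH5, PECAM1 and TAL1 are limited by depth.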
